A study of Mus musculus with 8 samples.

Results

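Aire, Fezf2 and 6 genes for proteins known to work with one or the other (Chd4, Hipk2, Sirt1, Mbd1, Top1 and Prkdc) were followed across 4 subsets of mouse medullary thymic epithelial cells (mTECs). The 8 genes were chosen by name, with earlier results of these data known, and found by gene symbol among the 25466 genes of the deposited count table, and all 8 passed the filter on low counts that left 17006 genes to test. RNA was sequenced from FACS-isolated thymic mTECs (CD45neg, Epcampos and CDR1neg) of wild-type BL6N6 mice aged 4 to 6 weeks, with no treatment and no altered allele in any group. The 4 subsets were gated on Tspan8, a tetraspanin that is itself a tissue-restricted antigen, and on the maturation marker MHCII, as Tspan8negMHCIIlo, Tspan8negMHCIIhi, Tspan8posMHCIIhi and Tspan8posMHCIIlo. Each subset had 2 libraries, labelled as biological replicates. How many mice went into a library is not given in the sources used here. The comparisons address whether these genes differ with Tspan8 at a given MHCII level and with MHCII at a given Tspan8 level.

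Medullary thymic epithelial cells express genes that are otherwise restricted to other tissues, so that developing T cells meet self-antigens and self-reactive cells are removed or diverted. Aire is the autoimmune regulator, a chromatin-reading protein that raises the expression of many such genes, and Fezf2 is a zinc-finger transcription factor that acts on another set. Neither works alone: Sirt1 is a deacetylase that acts on Aire, Hipk2 is a kinase that phosphorylates it, Chd4 is the remodelling ATPase of the NuRD complex and a partner of Fezf2, Mbd1 binds methylated DNA, Top1 relaxes DNA by nicking 1 strand, and Prkdc is the catalytic subunit of the DNA-dependent protein kinase.

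In the GRCm38 annotation Aire lies at chr10:78030022-78043610, Sirt1 at chr10:63319005-63381704 and Fezf2 at chr14:12342094-12348189, all on the minus strand. Part of Aire, 67 bases of exon, is also exon of Dnmt3l on the opposite strand, and 65 bases of Sirt1 are exon of the antisense gene Gm16145. The sources give 1 library kit that marks strand and 1 method that does not, so reads from these stretches cannot be assigned with certainty.

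Promoter sequence was taken from RefSeq (GRCm38.p6) for Aire, Fezf2 and Sirt1, the 3 genes whose levels moved between subsets. It shows what stands before the RefSeq start of each. For Fezf2 and Sirt1 that start lies inside the gene span given above, downstream of its annotated 5′ end. The bases run 5′ to 3′ on the gene's strand, up to the first annotated exon base met in the window. Capitals mark matches, on either strand, to 4 short motifs. These are the E-box, searched as CACGTG, the CCAAT box, the TATA box, searched as TATAAA, and the GC box, searched as GGGCGG. The windows are chr10:78043611-78043860, chr14:12345960-12346115 and chr10:63339051-63339285.
Aire: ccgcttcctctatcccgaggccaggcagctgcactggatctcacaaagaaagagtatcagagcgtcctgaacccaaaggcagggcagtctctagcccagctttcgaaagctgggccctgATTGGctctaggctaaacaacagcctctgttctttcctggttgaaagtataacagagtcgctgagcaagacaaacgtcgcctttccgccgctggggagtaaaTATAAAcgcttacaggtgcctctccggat
Fezf2: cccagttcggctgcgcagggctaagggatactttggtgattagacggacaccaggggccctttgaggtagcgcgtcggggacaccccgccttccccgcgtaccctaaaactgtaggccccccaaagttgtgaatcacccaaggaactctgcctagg
Sirt1: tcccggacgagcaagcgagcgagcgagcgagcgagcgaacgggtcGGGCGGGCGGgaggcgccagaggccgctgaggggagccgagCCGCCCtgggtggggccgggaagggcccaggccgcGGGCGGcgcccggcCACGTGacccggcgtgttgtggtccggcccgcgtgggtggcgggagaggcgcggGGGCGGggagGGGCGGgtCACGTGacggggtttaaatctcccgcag

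The 3 promoters differed in these letters. In the 250 bases before the RefSeq start, Aire held 1 TATA box and 1 CCAAT box match, and neither of the other motifs. Sirt1 held 2 E-box and 6 GC box matches, some of the latter overlapping, and Fezf2 held 1 GC box match, which falls in exon sequence that is not printed. Of 32851 RefSeq promoter windows searched on both strands over the same length, 12.4% held the TATA box letters, 33.8% those of the CCAAT box, 32.7% those of the GC box and 6.02% those of the E-box. The GC content was 53.2% for Aire, 61.2% for Fezf2 and 79.2% for Sirt1, against a median of 52.4% over all windows. Of the other members, Top1, Chd4 and Hipk2 had entries in the RefSeq table. Mbd1 and Prkdc had no entry.

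The libraries held between 1941518 and 7783841 counts, and the smallest was Tspan8posMHCIIlo replicate 1. In CPM, the count scaled to library size with TMM factors, Tspan8 itself was at 347 to 404 in the Tspan8pos libraries and at 3.65 to 14.6 in the Tspan8neg libraries. The MHCII gene H2-Ab1 was at 4988 and 5098 CPM in Tspan8negMHCIIhi, 2431 and 2619 CPM in Tspan8posMHCIIhi, 2074 and 1700 CPM in Tspan8negMHCIIlo and 518 and 489 CPM in Tspan8posMHCIIlo. The 6 markers of thymic epithelium summed to between 3670 and 9644 CPM in every library. Thymocyte and B cell markers were present as well and were highest in Tspan8negMHCIIlo, where the 6 thymocyte genes summed to 336 and 933 CPM, against 62.8 to 196 CPM elsewhere, and the 4 B cell genes to 473 and 822 CPM, against 25.3 to 122 CPM. The 5 cTEC genes (889 to 1083 CPM against 437 to 547 CPM) and the 2 endothelial genes (82.0 to 98.9 CPM against 11.6 to 58.8 CPM) were highest there too. The sum of the 5 dendritic and myeloid genes instead moved with MHCII. It was 294 to 381 CPM in the MHCIIhi libraries and 51.1 to 116 CPM in the MHCIIlo libraries. Most of that sum was Lyz2, the myeloid lysozyme, which was called higher with MHCII at both Tspan8 levels, while the dendritic cell receptor Flt3 was called higher in Tspan8neg cells and stayed at or below 17.4 CPM. Itgax, Cd68 and Xcr1 of that list were not called with MHCII at either Tspan8 level. Itgax was at 9.27 and 25.7 CPM in Tspan8negMHCIIlo and at most 6.15 CPM elsewhere. Cd68 was at 41.1 to 46.9 CPM in the Tspan8pos libraries and 10.1 to 23.7 CPM in the Tspan8neg ones. Xcr1 stayed at or below 5.26 CPM. The 3 fibroblast genes summed to 36.4 to 118 CPM. No gene of these lists was at 0 in a whole subset, and the part of such cells in the results was not tested.

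Aire was by far the most variable of the 8 genes. Its level was 2658 and 2476 CPM in Tspan8negMHCIIhi, 402 and 541 CPM in Tspan8posMHCIIhi, 212 and 205 CPM in Tspan8negMHCIIlo, and 14.8 and 35.4 CPM in Tspan8posMHCIIlo. No 2 subsets overlapped, and both libraries of each subset kept the order Tspan8negMHCIIhi, Tspan8posMHCIIhi, Tspan8negMHCIIlo, Tspan8posMHCIIlo. In RNA of sorted populations, fewer cells that express a gene and less of its RNA per cell cannot be told apart.

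A gene was called when edgeR's quasi-likelihood test, fitted over all 8 libraries, gave a Benjamini-Hochberg adjusted p under 0.01 and a log2 fold change of at least 1 in size. MHCIIhi exceeded MHCIIlo for Aire at both Tspan8 levels, by a log2 fold change of 3.62 ± 0.26 (SE, n = 2 per subset, edgeR adjusted p = 3.12e-06) among Tspan8neg cells and 4.09 ± 0.29 (edgeR adjusted p = 9.95e-06) among Tspan8pos cells. Those differences are 12.3-fold and 17.0-fold. Tspan8pos cells had less Aire than Tspan8neg cells at both MHCII levels, by 5.44-fold in MHCIIhi (log2 fold change −2.44 ± 0.25, edgeR adjusted p = 2.28e-05) and by 7.53-fold in MHCIIlo (−2.91 ± 0.28, edgeR adjusted p = 1.24e-05). The MHCII level was not equal between these subsets, since H2-Ab1 had the same order of subsets as Aire, was called lower with Tspan8 in MHCIIlo, and in MHCIIhi was at 2431 and 2619 CPM against 4988 and 5098 CPM, while the maturation marker Cd80 was called lower with Tspan8 in MHCIIhi. Their part in the Tspan8 difference of Aire was not tested. The difference between the 2 Tspan8 effects was −0.47 ± 0.36 on the log2 scale (95% interval −1.26 to 0.32, edgeR adjusted p = 0.45), so a difference was not detectable, and the interval reaches past a log2 value of −1. The 4 comparisons share libraries and are not independent.

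The middle of the Aire order was the least certain. Tspan8posMHCIIhi exceeded Tspan8negMHCIIlo by 2.26-fold (log2 fold change 1.18 ± 0.24, edgeR adjusted p = 0.00237), and this call was lost without Tspan8posMHCIIhi replicate 2 (0.95, edgeR adjusted p = 0.0285) and with DESeq2 (1.20, DESeq2 adjusted p = 0.0167). The bottom of the order rested on few reads in 1 library, since Aire had 27 counts in Tspan8posMHCIIlo replicate 1 and 259 in replicate 2. Without replicate 2 the Tspan8 difference in MHCIIlo was −3.81 and the MHCII difference in Tspan8pos was 4.99. With a single library left in that subset, the spread behind these values comes from the other subsets alone. Between the ends of the order, Tspan8negMHCIIhi and Tspan8posMHCIIlo, the difference was 92.7-fold (log2 fold change −6.53 ± 0.31, edgeR adjusted p = 6.41e-08), or −7.42 without Tspan8posMHCIIlo replicate 2.

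Dnmt3l, the gene that shares exon bases with Aire, had 226 and 301 counts in Tspan8negMHCIIhi, 53 and 60 in Tspan8posMHCIIhi, 6 and 10 in Tspan8negMHCIIlo and 1 and 3 in Tspan8posMHCIIlo. Its libraries thus followed the order of Aire, at counts far below those of Aire. How many reads of either gene came from the other was not tested.

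**Figure D1:**
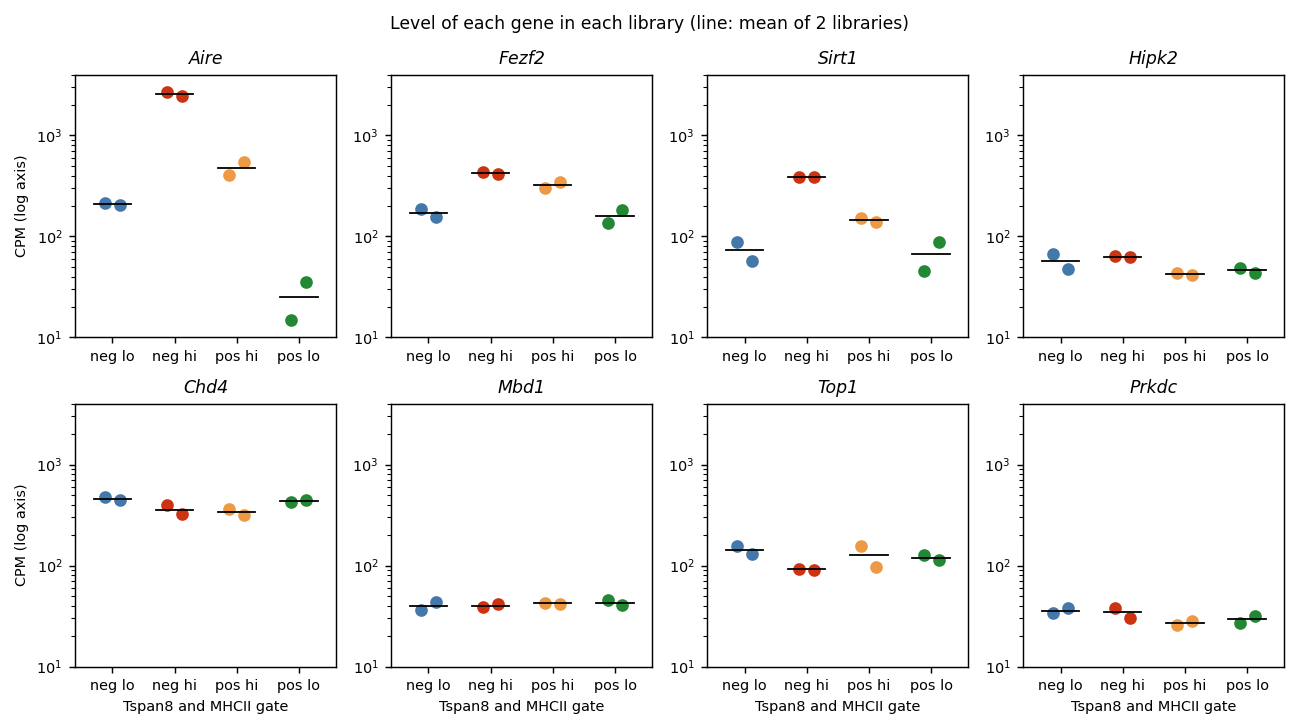
Level of each of the 8 genes in CPM on a log axis, with 1 point per library and a line at the mean of the 2 libraries of each subset (neg and pos, Tspan8; lo and hi, MHCII). Aire spans 14.8 to 2658 CPM, Fezf2 and Sirt1 show the same order of subset means over narrower ranges, and the other 5 genes stay within 1.75-fold across all libraries.

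Fezf2 had the same order of subset means as Aire over a much narrower range. It was at 435 and 416 CPM in Tspan8negMHCIIhi, 299 and 346 CPM in Tspan8posMHCIIhi, 186 and 157 CPM in Tspan8negMHCIIlo, and 136 and 183 CPM in Tspan8posMHCIIlo. The MHCIIhi libraries all lay above the MHCIIlo libraries, while the 2 MHCIIlo subsets overlapped. Fezf2 rose with MHCII among Tspan8neg cells by 2.48-fold (log2 fold change 1.31 ± 0.17, edgeR adjusted p = 1.10e-04) and among Tspan8pos cells by 2.00-fold (1.00 ± 0.17, edgeR adjusted p = 0.0019). The second of these lay on the limit of the fold used for calls, and it was lost without Tspan8posMHCIIhi replicate 2 (0.89, edgeR adjusted p = 0.0238), without Tspan8posMHCIIlo replicate 1 (0.84, edgeR adjusted p = 0.0205) and, by its size alone, without Tspan8negMHCIIlo replicate 2 (0.996).

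No difference in Fezf2 with Tspan8 passed the test. In MHCIIlo the log2 fold change was −0.09 (95% interval −0.46 to 0.28, edgeR adjusted p = 0.702) and in MHCIIhi it was −0.40 (95% interval −0.76 to −0.05, edgeR adjusted p = 0.0723), where the libraries of the 2 subsets did not overlap. Tspan8posMHCIIhi was above Tspan8negMHCIIlo by 0.91 (edgeR adjusted p = 0.00102), short of the fold limit, and Tspan8posMHCIIlo fell below Tspan8negMHCIIhi by 2.64-fold (log2 fold change −1.40, edgeR adjusted p = 4.05e-05).

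Compared per kilobase of merged exon, the balance of Aire and Fezf2 differed between the subsets. Aire was at 695 and 647 CPM per kb in Tspan8negMHCIIhi, where Fezf2 was at 143 and 136 CPM per kb. The ratio of Aire to Fezf2, both per kb, was therefore 4.86 and 4.75 in that subset. It was 1.07 and 1.25 in Tspan8posMHCIIhi, 0.908 and 1.04 in Tspan8negMHCIIlo, and 0.0871 and 0.154 in Tspan8posMHCIIlo. The ratio was thus near 1 in 2 subsets, well above 1 in Tspan8negMHCIIhi and well below 1 in Tspan8posMHCIIlo, where Fezf2 remained at 44.6 and 60.1 CPM per kb. These ratios are descriptions, with no test of their own. Merged exons pool all annotated transcripts of a gene, 3825 bases for Aire and 3047 bases for Fezf2. The size of the ratio, and so its nearness to 1, depends on these lengths, while its change between subsets does not.

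**Figure D2:**
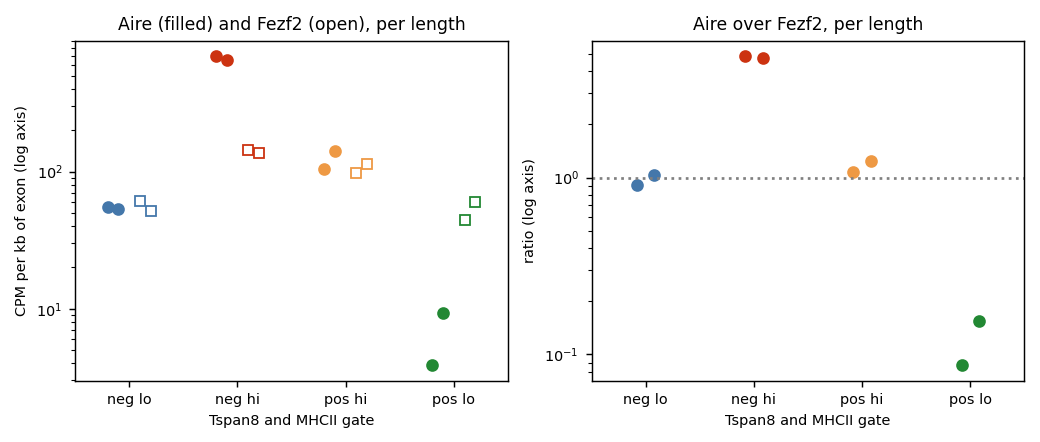
Left, Aire (filled circles) and Fezf2 (open squares) in CPM per kilobase of merged exon, on a log axis; right, the ratio of the 2 per-length levels, on a log axis with a dotted line at 1. Each point is 1 library, and the ratio runs from 4.86 in Tspan8negMHCIIhi to 0.0871 in Tspan8posMHCIIlo.

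Sirt1 was the only one of the 6 cofactor genes to be called in any comparison. It stood at 386 and 384 CPM in both Tspan8negMHCIIhi libraries, 153 and 140 CPM in Tspan8posMHCIIhi, 88.8 and 57.5 CPM in Tspan8negMHCIIlo, and 45.1 and 88.6 CPM in Tspan8posMHCIIlo. The 2 MHCIIlo subsets overlapped, and each MHCIIhi subset lay apart from the others. Sirt1 rose with MHCII among Tspan8neg cells by 5.28-fold (log2 fold change 2.40 ± 0.27, edgeR adjusted p = 4.85e-05). Among Tspan8pos cells the difference was 1.07 ± 0.26 (edgeR adjusted p = 0.018) and was not called, although DESeq2 (1.11, DESeq2 adjusted p = 2.85e-04) and 8 of the other settings tried called it, 1.70 (edgeR adjusted p = 0.00821) without Tspan8posMHCIIlo replicate 2 among them. The 18 settings gave adjusted p values from 2.85e-04 to 0.0961.

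Tspan8pos cells had 2.63-fold less Sirt1 than Tspan8neg cells in MHCIIhi (log2 fold change −1.40 ± 0.25, edgeR adjusted p = 0.00137), and leaving out either Tspan8posMHCIIhi library lost the call, at −1.44 (edgeR adjusted p = 0.0154) without replicate 1 and −1.32 (edgeR adjusted p = 0.0211) without replicate 2. In MHCIIlo the Tspan8 difference was −0.06 (95% interval −0.66 to 0.54, edgeR adjusted p = 0.885). The difference between the 2 Tspan8 effects was 1.34 ± 0.37 (95% interval 0.52 to 2.15, edgeR adjusted p = 0.039), which did not pass the 0.01 used for calls and was 0.69 (edgeR adjusted p = 0.283) without Tspan8posMHCIIlo replicate 2 and 1.67 (edgeR adjusted p = 0.00358) without Tspan8negMHCIIlo replicate 1. Sirt1 in Tspan8posMHCIIhi exceeded Tspan8negMHCIIlo by 2.01-fold (log2 fold change 1.00 ± 0.26, edgeR adjusted p = 0.00914), a call lost in 7 of 18 settings, with values down to 0.72 (edgeR adjusted p = 0.0353) without Tspan8negMHCIIlo replicate 2. Tspan8posMHCIIlo was 5.51-fold below Tspan8negMHCIIhi (−2.46 ± 0.27, edgeR adjusted p = 2.22e-05), a difference of −3.09 without Tspan8posMHCIIlo replicate 2.

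Hipk2 (chr6:38694390-38876165, minus), the kinase, and Chd4 (chr6:125095981-125130591, plus), the NuRD ATPase, were not called in any comparison. Hipk2 was at 67.1 and 47.2 CPM in Tspan8negMHCIIlo, 63.2 and 62.8 in Tspan8negMHCIIhi, 43.8 and 41.9 in Tspan8posMHCIIhi, and 48.9 and 43.4 in Tspan8posMHCIIlo. The Tspan8posMHCIIhi libraries lay below both Tspan8negMHCIIhi libraries, with a log2 fold change of −0.56 (95% interval −0.94 to −0.17, edgeR adjusted p = 0.0272). Chd4 was at 472 and 441 CPM in Tspan8negMHCIIlo and 429 and 441 in Tspan8posMHCIIlo, against 395 and 321 in Tspan8negMHCIIhi and 361 and 318 in Tspan8posMHCIIhi. Every MHCIIlo library was thus above every MHCIIhi library, with log2 fold changes for MHCIIhi of −0.35 in Tspan8neg (95% interval −0.66 to −0.05, edgeR adjusted p = 0.0606) and −0.36 in Tspan8pos (−0.66 to −0.05, edgeR adjusted p = 0.108). The order of Chd4 was therefore not that of Fezf2, its partner.

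Mbd1 (chr18:74267605-74282732, plus), the methyl-DNA binder, was the most even of the 8 genes, at 36.0 to 45.6 CPM over all libraries. Its log2 fold changes in the 4 comparisons lay between 0.00 and 0.10, and the 95% intervals reached no further than −0.36 and 0.46. Prkdc (chr16:15637866-15842235, plus) was at 34.0 and 37.7 CPM in Tspan8negMHCIIlo, 38.1 and 30.5 in Tspan8negMHCIIhi, 25.5 and 28.0 in Tspan8posMHCIIhi, and 26.9 and 31.5 in Tspan8posMHCIIlo, lower on average in Tspan8pos cells but with differences of −0.35 in MHCIIhi (edgeR adjusted p = 0.154) and −0.27 in MHCIIlo (edgeR adjusted p = 0.278) that did not pass. Top1 (chr2:160645888-160722764, plus) was at 154 and 129 CPM in Tspan8negMHCIIlo, 92.5 and 90.2 in Tspan8negMHCIIhi, 158 and 96.5 in Tspan8posMHCIIhi, and 126 and 112 in Tspan8posMHCIIlo. Its lowest subset was thus the one with the most Aire, at −0.63 ± 0.21 against Tspan8negMHCIIlo (edgeR adjusted p = 0.0288), which was not called. The 2 Tspan8posMHCIIhi libraries spanned nearly the whole range of Top1.

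For these 5 genes, 19 of the 20 intervals over the 4 comparisons lay inside a log2 fold change of 1 in either direction. The exception was Top1 with MHCII in Tspan8neg cells, whose interval reached −1.09. In the level per kilobase of merged exon, averaged over the 4 subset means, Aire (214 CPM per kb) came first, followed by Fezf2 (88.5), Chd4 (49.6), Sirt1 (31.5) and Top1 (11.5). Mbd1 (6.17), Hipk2 (5.92) and Prkdc (2.39) were the lowest. This ranking depends on the merged exon lengths used.

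**Figure D3:**
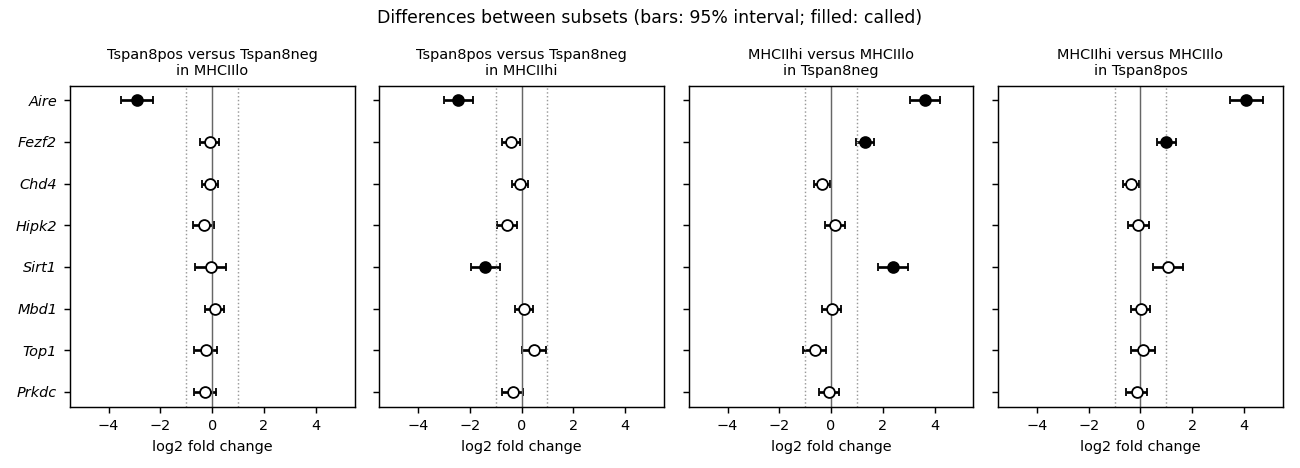
The log2 fold change of each of the 8 genes in the 4 comparisons, with 95% intervals from edgeR and dotted lines at a log2 fold change of 1 in each direction. Filled points were called; these are Aire in all 4 panels, Fezf2 in both MHCII panels, and Sirt1 in MHCIIhi for Tspan8 and in Tspan8neg for MHCII.

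Counted over the 8 genes, 1 was called in Tspan8pos against Tspan8neg in MHCIIlo (Aire, lower), where 12.1% of all tested genes were called higher and 9.34% lower. In MHCIIhi the Tspan8 comparison called 2 of 8, Aire and Sirt1, both lower, against 11.0% of all genes higher and 7.45% lower. With MHCII among Tspan8neg cells 3 of 8 were called higher (Aire, Sirt1 and Fezf2), against 13.1% of all genes higher and 9.67% lower. With MHCII among Tspan8pos cells 2 of 8 were called higher (Aire and Fezf2), against 4.59% higher and 2.62% lower. Tspan8posMHCIIhi against Tspan8negMHCIIlo called 2 of 8, with 24.7% of all genes called, and Tspan8posMHCIIlo against Tspan8negMHCIIhi called 3 of 8, with 29.3%. The difference between the Tspan8 effects called none of the 8, with 4.6% of all genes called by edgeR. For Sirt1 that difference had an edgeR p of 0.0042 before adjustment and 0.039 after it. For Top1 these edgeR values were 0.030 and 0.135. DESeq2 called 1 of the 8, Sirt1. The share of all genes under either of these other measures is not given here, so nothing is read from them.

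A list of 9 genes, all tested, was chosen as possibly upstream of Aire or Fezf2 in mTECs. It held TNF family receptors, NF-kB subunits and transcription factors. Whether each acts on either gene was not tested. With MHCII among Tspan8neg cells 6 of the 9 were called higher and 1 lower, against 13.1% of all genes higher and 9.67% lower. The median log2 fold change was 1.18 against −0.04 over all genes. Cd40, the receptor for CD40 ligand, was at 211 ± 9.9 CPM (SD, n = 2) in Tspan8negMHCIIhi, 55.1 ± 4.1 in Tspan8posMHCIIhi, 39.5 ± 3.8 in Tspan8negMHCIIlo and 11.7 ± 2.1 in Tspan8posMHCIIlo, the same order of means as Aire. Irf4, an interferon regulatory factor, had that order too, at 233 ± 11, 66.2 ± 0.37, 52.8 ± 9.1 and 13.2 ± 0.84 CPM. Both were called in all 4 comparisons, higher with MHCII and lower with Tspan8. The sum of the dendritic and myeloid markers, mostly Lyz2 as given above, was also higher in the MHCIIhi libraries. The part of such cells in the levels of these genes was not tested.

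The receptor RANK (Tnfrsf11a) and Irf8 were called higher with MHCII at both Tspan8 levels, with log2 fold changes of 1.35 and 1.78 in Tspan8neg cells. Relb and Nfkb2, subunits of the non-canonical NF-kB pathway, were called higher with MHCII in Tspan8neg cells (1.18 and 1.16), and their values in Tspan8pos cells were 0.47 and 0.30, which were not called. No gene of the list was called in the test of the difference between the effects. Nfkb1 was at 0.22 in Tspan8neg cells (edgeR adjusted p = 0.44). The lymphotoxin beta receptor Ltbr went the other way, lower with MHCII in Tspan8neg cells (−1.09) and higher with Tspan8 in MHCIIhi cells (1.94). Prdm1, which encodes the repressor Blimp1, was higher with Tspan8 at both MHCII levels, by 2.64 and 2.82 in MHCIIhi and MHCIIlo. In MHCIIlo the Tspan8 comparison called 1 of the 9 higher and 2 lower (median −0.17 against −0.03 over all genes). In MHCIIhi it called 2 higher and 2 lower (median −0.61 against −0.03). Of all genes, 12.1% were called higher and 9.34% lower in MHCIIlo, and 11.0% and 7.45% in MHCIIhi.

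The known partners of the proteins, 39 genes in 5 lists that were all tested, were counted in the same way. With MHCII among Tspan8neg cells none of the 39 was called higher and 4 were called lower (median −0.39 against −0.04 over all genes), where 13.1% of all genes were called higher and 9.67% lower. Among Tspan8pos cells 1 was called higher and none lower (median −0.16 against 0.01), with 4.59% and 2.62% of all genes. With Tspan8 none was called higher, and 6 were called lower in MHCIIlo (median −0.45 against −0.03, with 9.34% of all genes lower) and 2 in MHCIIhi (median −0.18 against −0.03, with 7.45% lower). Lower calls were about as frequent as over all genes or less so, except with Tspan8 in MHCIIlo. There the 6 of 39 were a larger share, and 4 of the 6 were break and repair genes. Nothing particular to the partners as a whole is read from these counts. No gene among the elongation partners (5 genes, among them the Cdk9 kinase), the histone and chromatin partners (12 genes) or the 2 genes of the Mbd1 complex, Atf7ip and Setdb1, was called in the 4 comparisons.

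The calls fell among the DNA break and repair partners and the NuRD subunits. Of 8 break and repair genes, 4 were called lower with Tspan8 in MHCIIlo (median −1.17 against −0.03 over all genes). In MHCIIhi 2 were called lower (median −0.80). Of all genes, 9.34% and 7.45% were called lower in these comparisons. Top2a, the topoisomerase that cuts both strands and is made in dividing cells, was at 157 ± 58 and 156 ± 22 CPM in the Tspan8neg MHCIIlo and MHCIIhi subsets and at 23.3 ± 12 and 27.1 ± 3.4 CPM in the Tspan8pos ones. Parp1, a sensor of DNA breaks, was lower with Tspan8 in both MHCIIlo (−1.74) and MHCIIhi (−1.34), and Trim28 (−1.19) and the Ku subunit Xrcc5 (−1.23) in MHCIIlo. Proliferation markers were lower with Tspan8 as well. Of the 6, 5 were called lower at both MHCII levels, Top2a itself among them. The 6 summed to 552 to 823 CPM in Tspan8neg against 140 to 195 CPM in Tspan8pos libraries. In MHCIIlo 2 of the 6 thymocyte markers (Cd3e and Lck) and 2 of the 4 B cell markers (Cd79a and Ighm) were also called lower. None of these 2 lists was called higher there. The part of proliferating or other cells in the partner genes' change was not tested.

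With MHCII in Tspan8neg cells both Ku subunits were called lower, Xrcc5 by −1.31 and Xrcc6 by −1.83. Xrcc6 was at 81.0 ± 50 CPM in Tspan8negMHCIIlo, so its 2 libraries there were far apart. In the same comparison 4 of the 6 thymocyte markers (Lck, Rag1, Cd3e and Ptprc) were called lower, and the sums of all 6 in the 2 Tspan8negMHCIIlo libraries, 336 and 933 CPM, were far apart as well. The part of such cells in the Ku values was not tested. These are the DNA-binding partners of Prkdc, which itself was not called. Among the 12 NuRD subunits beside Chd4, Mta1 was called lower in Tspan8posMHCIIlo (−1.58) and in Tspan8negMHCIIhi (−1.30) against Tspan8negMHCIIlo, where it stood at 95.8 ± 7.6 CPM. Mbd2 was called lower with MHCII in Tspan8neg cells (−1.44), Chd3, the close relative of Chd4, lower with Tspan8 in MHCIIlo (−1.02), and the histone chaperone Rbbp7 higher with MHCII in Tspan8pos cells (1.18). The NuRD medians were −0.36 and −0.05 for Tspan8 in MHCIIlo and MHCIIhi, and −0.35 and −0.13 for MHCII in Tspan8neg and Tspan8pos.

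**Figure D4:**
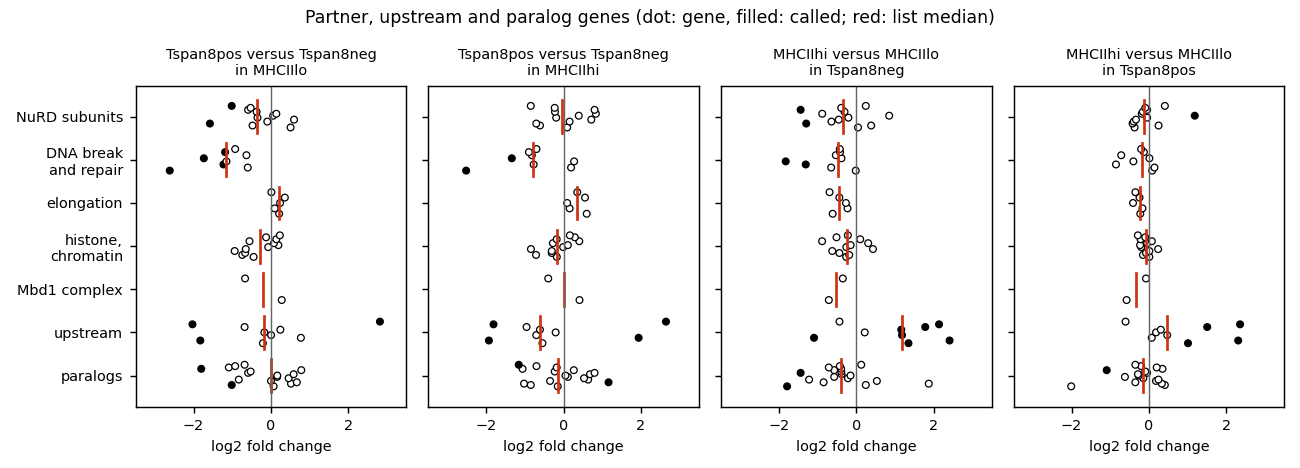
The log2 fold change of each listed gene (points, filled where called) and the list median (red line) in the 4 comparisons, for 5 lists of partners, the 9 upstream genes and the 17 paralogs. The upstream list has medians of 1.18 and 0.47 in the MHCII panels, while the break and repair list lies to the left in the Tspan8 panels, with medians of −1.17 and −0.80.

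Paralogs of the 8 proteins were examined in the same way. Of 17 tested, none was called higher and 2 lower with MHCII in Tspan8neg cells (median −0.39). In Tspan8pos cells none was called higher and 1 lower (median −0.15). With Tspan8, 2 were called lower in MHCIIlo (median 0.00), and 1 higher and 1 lower in MHCIIhi (median −0.15). Of all genes, 13.1% were called higher and 9.67% lower with MHCII in Tspan8neg cells, and 4.59% and 2.62% in Tspan8pos cells. With Tspan8 the shares were 12.1% and 9.34% in MHCIIlo, and 11.0% and 7.45% in MHCIIhi. Nothing particular to the paralogs is read from these counts. Fezf1, the paralog of Fezf2, was low throughout and went opposite to Fezf2 with MHCII, at 11.6 ± 4.9 and 11.7 ± 4.1 CPM in the Tspan8neg and Tspan8pos MHCIIlo subsets against 3.26 ± 1.4 and 3.03 ± 1.2 CPM in MHCIIhi. The change was called in Tspan8neg cells (−1.79, edgeR adjusted p = 0.00936) and not in Tspan8pos cells (−2.01, edgeR adjusted p = 0.0152). None of Sirt2, Sirt3, Sirt6 and Sirt7 was called in the 4 comparisons, in contrast to Sirt1. Hipk1 was higher with Tspan8 in MHCIIhi (1.16), where Hipk2 was not called.

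Genes described in earlier work as dependent on Aire were mostly sparse in these libraries. Of 11, only 8 passed the filter. With MHCII, 5 of the 8 were called higher in Tspan8neg cells and 3 in Tspan8pos cells, and none lower. The medians were 3.17 and 2.54, or 2.99 and 2.45 with genes at 0 in 1 subset held at a bound. That bound is what 3 counts over the subset's 2 libraries allow. Of all genes, 13.1% and 4.59% were called higher and 9.67% and 2.62% lower, with medians of −0.04 and 0.01. Genes this sparse can pass the filter on low counts through the libraries of 1 subset alone. A gene kept only through MHCIIhi could hardly be called lower with MHCII. These counts and medians are therefore partly set by the filter, and nothing about the list is read from them. Insulin 2 (Ins2) was at 7.54 ± 1.8 CPM in Tspan8negMHCIIhi and 4.42 ± 1.1 CPM in Tspan8posMHCIIhi, and at 0.258 and 0.616 CPM on average in Tspan8negMHCIIlo and Tspan8posMHCIIlo. Muc6, a gastric mucin, had no count in either Tspan8posMHCIIlo library. With Tspan8, 2 of the 8 were called higher and none lower at each MHCII level. Both times these were Tff3 and Bpifb1, secreted epithelial proteins. Of all genes, 12.1% were called higher and 9.34% lower in MHCIIlo, and 11.0% and 7.45% in MHCIIhi. The list median was −0.72 in MHCIIhi and 0.33 in MHCIIlo (0.67 over the 7 genes left with such bounds). Tff3 was highest in Tspan8posMHCIIhi, at 186 ± 27 CPM against 26.8 ± 4.1 CPM in Tspan8negMHCIIhi, where Aire was highest. Of the 3 antigens listed as independent of Aire, Gad1 was called higher with MHCII at both Tspan8 levels (3.07 and 2.02), and Col2a1 and Crp at neither.

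Genes that the study names from earlier work as dependent on Fezf2 numbered 13, of which 12 passed the filter. With MHCII, 8 were called higher and 1 lower in Tspan8neg cells (median 1.66) and 7 higher and none lower in Tspan8pos cells (median 1.84). Of all genes, 13.1% were called higher and 9.67% lower in Tspan8neg cells (median −0.04), and 4.59% and 2.62% in Tspan8pos cells (median 0.01). With Tspan8, 4 were called higher and 2 lower in MHCIIlo (median 0.16) and 5 higher and 1 lower in MHCIIhi (median 0.66). The shares of all genes were 12.1% and 9.34% in MHCIIlo, and 11.0% and 7.45% in MHCIIhi (median −0.03 in each). Smtnl1 had the MHCII pattern most plainly, at 58.9 ± 1.1 and 51.2 ± 2.6 CPM in the Tspan8neg and Tspan8pos MHCIIhi subsets against 6.08 ± 0.93 and 4.17 ± 2.8 CPM in MHCIIlo. Ttr, transthyretin, was at 73.2 ± 13 CPM in Tspan8posMHCIIhi and at most 9.78 CPM on average in the other subsets. Cd177 went against the rest, at 171 ± 49 CPM in Tspan8negMHCIIlo and 11.0 ± 3.7 CPM in Tspan8negMHCIIhi. In the study's Fezf2 ChIP sequencing, Smtnl1, Ttr, Cd177, Apoc3, Klk1b16 and Pck1 lacked enriched peaks, as did Csmd3, printed there as Csmp3. Kctd15, Asxl3, Prokr2, Ckmt1, Kif26a and Krt10 had Fezf2 binding.

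Markers of Tuft mTECs were highest where Aire was lowest. The 4 Tuft mTEC genes (Dclk1, Pou2f3, Trpm5 and Avil) summed to 5267 and 5419 CPM in Tspan8posMHCIIlo, the subset with the least Aire, 837 to 1130 CPM in Tspan8negMHCIIlo and Tspan8posMHCIIhi, and 127 and 139 CPM in Tspan8negMHCIIhi, the subset with the most. All 4 were called higher with Tspan8 and lower with MHCII in each comparison. The keratinization genes Krt10 and Ivl summed to 1898 to 2241 CPM in the Tspan8pos libraries and 42.4 to 88.3 CPM in the Tspan8neg ones. The part of such cells in the levels of Aire was not tested.

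The genes whose log2 CPM over the 8 libraries was most like that of Aire, by Pearson correlation among 11047 other genes whose mean CPM reached 10, were Tnfrsf9 (r = 0.994), Tnfrsf14 (0.994), Esd (0.991), Gnb4 (0.990) and Rasd2 (0.986). For Fezf2 they were Idi2 (0.994), Ufsp1 (0.989), Zfp318 (0.989), Micall2 (0.989) and Stard4 (0.987). Idi2 averaged 33.4 CPM in Tspan8negMHCIIhi and 9.17 CPM in Tspan8posMHCIIhi. In Tspan8negMHCIIlo and Tspan8posMHCIIlo it averaged 0.281 and 0.205 CPM, below the level of 3 counts, so the prior count shaped its values there. These are descriptions over 8 points that fall into 4 subsets and share their libraries. Sirt1 and Fezf2 had r = 0.959, Aire and Fezf2 0.901, and Aire and Sirt1 0.898, so Sirt1 ranked 82 and Aire 343 among the genes most like Fezf2. By Spearman correlation Aire and Sirt1 were both at 0.976 with Fezf2 and shared rank 6, so these ranks depend on the measure. Chd4 correlated with Fezf2 at −0.784.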

How the data were processed

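RNA-seq of 8 FACS-isolated mTEC libraries, 2 for each of 4 subsets, was analysed, and libraries were grouped by the subset and replicate number in the sample labels. The authors deposited estimated counts per gene, whole numbers without normalization, made with Salmon 1.8.0 on a Gencode mouse transcriptome (mm10), and tested them with DESeq2 1.30.0; their results were not used. Gene symbols and coordinates came from a later GENCODE release on GRCm38, in which 25336 of 25466 identifiers matched. Whether counting used strand is not given in the sources used here.

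Counts were fitted in R 4.3.3 with edgeR 4.0.16 (quasi-likelihood test, TMM factors, filterByExpr, all 8 libraries, 1 mean per subset, 4 residual degrees of freedom). All tests were 2-sided, with Benjamini-Hochberg adjustment over 17006 genes, and the common biological coefficient of variation was 15.5%. Calls needed both an adjusted p under 0.01 and a fold of 2 in either direction. SE is the fold change over the root of F. Log2 CPM for correlations used a prior count of 2. With 1941518 to 7783841 counts per library, 3 counts correspond to 0.385 to 1.65 CPM. Scripts were tested on simulated data. The 8 genes and all lists were chosen with earlier results of these data known. Among the listed partners, 1 gene is not reported here. Beyond the 8 genes, the text names called genes of fixed lists, the 5 genes most like Aire and Fezf2, and a few list genes chosen after their values were seen. Alternatives were DESeq2 1.42.0, other scalings and filters, only the libraries compared, a replicate block, thinning and leaving out each library. Replicates share numbers across subsets, and the sources used here do not give whether this marks a shared origin. Correlations of deviations between same-numbered libraries were 0.00402 to 0.0924. These values do not settle that question, and the main fit left the libraries unpaired.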

Additional observations from a re-analysis of the deposited data

Results flagged for a closer look

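The difference between the MHCII levels in the Tspan8 effect on Sirt1 was flagged because a test of the difference itself gave an adjusted p under 0.05. It was 1.34 on the log2 scale (MHCIIlo minus MHCIIhi, SE 0.37, edgeR adjusted p = 0.039), short of the 0.01 used for calls. Sirt1 was lower in both Tspan8posMHCIIhi libraries (153 and 140 CPM) than in both Tspan8negMHCIIhi libraries (386 and 384 CPM), and the MHCIIlo libraries overlapped. Over 17 alternative settings the value ran from 0.69 to 1.67 and the adjusted p from 0.0029 to 0.283.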

How the results depend on the processing

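Over 18 alternative settings, the calls of Aire in the 4 comparisons within a Tspan8 or MHCII level, and of Fezf2 and Sirt1 with MHCII in Tspan8neg cells, kept their direction and side of the threshold. The cause of the changes below was not tested.

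The number of the 8 genes called with Tspan8 in MHCIIhi was 2, and 1 to 2 when 1 library was left out; with MHCII in Tspan8pos it was 2, and 1 to 3. For Tspan8posMHCIIhi against Tspan8negMHCIIlo it was 2, and 1 with DESeq2 or with library totals, and 0 to 3 when 1 library was left out (0 without Tspan8posMHCIIhi replicate 2). For the difference between the Tspan8 effects it was 0, and 1 with DESeq2, without a filter or at an adjusted p of 0.05, and 0 to 1 when 1 library was left out (1 without Tspan8negMHCIIlo replicate 1).

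Changes of sign occurred in values that had not been called. Thinned to the smallest library, they were 0.016 for Fezf2 and Tspan8 in MHCIIlo, −0.051 for Mbd1 and Tspan8 in MHCIIhi, −0.074 for Mbd1 and 0.0028 for Prkdc with MHCII in Tspan8pos, and 0.16 for Prkdc with MHCII in Tspan8neg. With library totals they were −0.074 and −0.10 for Mbd1 and Tspan8 in MHCIIlo and MHCIIhi; for Prkdc with MHCII in Tspan8neg they were 0.013 with DESeq2, 0.011 with DESeq2 size factors and 0.00073 with only the libraries compared. Leaving out 1 library gave −0.33 to 0.087 for Fezf2 (Tspan8 in MHCIIlo), −0.69 to 0.30 for Sirt1 (Tspan8 in MHCIIlo), −0.043 to 0.23 for Mbd1 (Tspan8 in MHCIIlo), −0.29 to 0.026 for Chd4 (Tspan8 in MHCIIhi), −0.057 to 0.11 for Mbd1 (Tspan8 in MHCIIhi), −0.10 to 0.41 for Hipk2 (MHCII in Tspan8neg), −0.11 to 0.17 for Mbd1 (MHCII in Tspan8neg), −0.16 to 0.17 for Prkdc (MHCII in Tspan8neg), −0.19 to 0.0050 for Hipk2 (MHCII in Tspan8pos), −0.098 to 0.098 for Mbd1 (MHCII in Tspan8pos) and −0.28 to 0.41 for Top1 (MHCII in Tspan8pos).

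Library totals without TMM factors shifted the median of all genes by −0.17 and −0.18 in the Tspan8 comparisons in MHCIIlo and MHCIIhi. All genes called went from 783 to 1267 (no filter), 1236 (replicate block) and 1754 (adjusted p of 0.05) for the difference between the Tspan8 effects, and from 1226 to 1858 (adjusted p of 0.05) with MHCII in Tspan8pos. Without 1 library these counts ran from 189 to 1385 and from 427 to 1671, with the lowest in both cases without Tspan8posMHCIIlo replicate 2. They fell from 3640 to 2273 with Tspan8 in MHCIIlo, from 3143 to 2045 with Tspan8 in MHCIIhi and from 3866 to 2360 with MHCII in Tspan8neg, at the lowest. With the replicate block, Sirt1 with MHCII in Tspan8pos was called (1.05, edgeR adjusted p = 0.0091), making 3 of the 8 genes called there. The count of the 8 genes called was the same in the other comparisons. Whether a shared replicate number stands for a shared origin is not given in the sources used here. By Spearman instead of Pearson correlation, 1 of the 5 genes most like Aire and 0 of the 5 most like Fezf2 were shared. Aire had 27 counts (14.8 CPM) in the smallest library and 259 (35.4 CPM) in the other of its subset, and thinning every library to the smallest total changed no call of Aire in the 4 comparisons.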
